A study of Mus musculus with 151 samples.

Results

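The collagen genes were taken as the rows of the deposited count matrix whose symbol is Col, a number, the letter a and a second number, which gave 44 of 55291 genes. They were read in 151 libraries, each prepared with a Smart-Seq HT kit from 1 cochlear cell picked by hand for its tdTomato fluorescence. The 55 P14_WT IHCs are inner hair cells (IHCs) of vGlut3-P2A-iCreER/+; Ai9/+ mice at postnatal day 14, the 50 P30_WT IHCs come from the same genotype at postnatal day 30, and the 46 P14_iOHCs come from vGlut3-P2A-iCreER/+; Tbx2 flox/-; Ai9/+ mice at postnatal day 14. The iOHCs, induced outer hair cells (OHCs), are former IHCs in which deletion of the transcription factor *Tbx2* was set off by tamoxifen shortly after birth, and they were picked as the smaller tdTomato+ cells. All mice were on the C57BL/6 strain, and both genotypes carry the tamoxifen-dependent iCreER knock-in at *Slc17a8*, which encodes vGlut3, together with the Cre-dependent Ai9 reporter. The tdTomato label of the control cells therefore depends on tamoxifen too. The paper describes that dosing, also shortly after birth, for the control mice used at postnatal day 30. In the iOHC mice 1 *Tbx2* allele was absent from the germ line onwards, whereas the control mice kept both. The labels name no animal, so each group counts as 1 sample here, no test was possible, and every interval below covers counting error only, not the spread among cells or mice.

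Collagens are secreted or membrane-bound proteins in which 3 alpha chains wind into a triple helix, and many types need chains from more than 1 gene. Fibrillar collagens form the cables of connective tissue, fibril-associated collagens sit on their surface, and type IV collagens build the sheet-like network of basement membranes. In the cochlea, types II, IX and XI, the collagens of cartilage, also form the fibrils of the tectorial membrane, the gel that lies over the hair bundles and is secreted largely by neighbouring supporting cells. Type IV chains line the basilar membrane and the vessels of the lateral wall, and loss of the *COL4A3*, *COL4A4* or *COL4A5* chain underlies Alport syndrome with deafness. Hair cells are not known as a main source of matrix, and fibroblasts, which make most type I and type III collagen, lie outside the sensory epithelium.

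The promoters of the 2 genes for the commonest type IV chains are printed first, because the genes start so close together that reads from their first bases cannot be told apart unless the counting used strand, which was not given in the sources used here. RefSeq windows from 250 bases before to 50 bases after the annotated start (GRCm38.p6) were found for 35 of the 44 collagens. *Col4a1* and *Col4a2* are transcribed away from each other, and their windows share a stretch of 78 bases, chr8:11312777-11312854, given in capitals on each gene's own strand.

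Col4a1, chr8:11312777-11313076, minus strand: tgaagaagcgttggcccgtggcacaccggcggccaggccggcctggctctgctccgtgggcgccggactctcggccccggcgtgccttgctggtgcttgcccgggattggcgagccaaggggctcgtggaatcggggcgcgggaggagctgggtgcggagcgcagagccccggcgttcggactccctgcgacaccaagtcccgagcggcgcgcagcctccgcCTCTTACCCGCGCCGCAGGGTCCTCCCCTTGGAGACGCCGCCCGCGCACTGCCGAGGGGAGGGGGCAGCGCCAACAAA

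Col4a2, chr8:11312555-11312854, plus strand: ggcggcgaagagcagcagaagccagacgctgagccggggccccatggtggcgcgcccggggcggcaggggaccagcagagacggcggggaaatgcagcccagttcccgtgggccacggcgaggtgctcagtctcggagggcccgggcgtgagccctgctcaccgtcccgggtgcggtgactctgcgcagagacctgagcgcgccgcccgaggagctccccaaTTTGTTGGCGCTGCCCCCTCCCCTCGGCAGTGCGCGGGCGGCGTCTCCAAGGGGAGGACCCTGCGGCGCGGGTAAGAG

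No window was found for the cartilage-type collagens *Col2a1* and *Col9a3*, so these could not be searched. The windows of the other cartilage-type collagens were searched on both strands for GGTGTGA, the core bound by T-box factors such as Tbx2, and for ACAAAG and ACAATG, cores of SOX factors. GGTGTGA lay in 3.98% of 32851 RefSeq promoter windows and in 1 of 38 collagen windows (2.63%), that of *Col11a2*. The match, in capitals, is the last 7 bases of the window. It lies after the RefSeq start, but the GENCODE M21 model of the gene starts downstream of the window, at chr17:34039437, so the match is on either side of the start depending on the annotation.

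Col11a2, chr17:34038888-34039187, plus strand: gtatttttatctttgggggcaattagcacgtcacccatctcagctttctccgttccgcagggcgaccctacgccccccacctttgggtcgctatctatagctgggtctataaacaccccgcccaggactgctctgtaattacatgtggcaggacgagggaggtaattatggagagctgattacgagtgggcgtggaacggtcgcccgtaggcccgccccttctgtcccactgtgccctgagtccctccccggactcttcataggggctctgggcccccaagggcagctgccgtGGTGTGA

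ACAAAG lay in 18.7% of all windows and in 5 collagen windows (*Col3a1*, *Col10a1*, *Col17a1*, *Col20a1* and *Col28a1*), and ACAATG in 12.6% of all windows and in that of *Col28a1*. The windows of *Col9a1*, *Col9a2* and *Col11a1* held none of these cores. These are matches of letters and say nothing of binding.

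Total counts per cell ranged from 4326416 to 25035444 and fell in 2 sets, 51 cells under and 100 cells over 11000000, with cells of every group in both. All 12 hair cell markers had counts in every group. *Tbx2* had a count in 55 of 55 P14_WT IHCs (lowest 49.5, median 240, highest 754 CPM, counts scaled to a library total of 1000000), in 50 of 50 P30_WT IHCs (3.29, 167 and 420 CPM) and in 45 of 46 P14_iOHCs (0, 41.4 and 427 CPM). Counts per gene do not show whether a cell lost the floxed exon. Every P14_iOHC held transcripts of *Slc26a5*, which encodes the OHC motor protein prestin, at a median of 1033 CPM, against counts in 2 of 55 P14_WT IHCs and 2 of 50 P30_WT IHCs. Collagen counts were most often traces in the P30_WT IHC libraries. Of their 300 gene-and-cell combinations with a collagen count, 48.3% were traces of 1 to 4 counts, against 18.2% in P14_WT IHCs and 28.7% in P14_iOHCs. Traces of 5 or more collagens occurred in 8 of 50 P30_WT IHCs, all with totals under 11000000. They also occurred in 8 of 46 P14_iOHCs, 1 of them with a total under 11000000, and in 1 of 55 P14_WT IHCs. The most collagens at traces in 1 cell were 18, 9 and 5 in these groups. Shares of cells at 5 counts are therefore given beside those at 1 count.

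Collagens as a class made up a small part of each library, 0.0161% of all counts in P14_WT IHCs, 0.0317% in P14_iOHCs and 0.0136% in P30_WT IHCs. The summed collagen level of a cell had nearly the same median in both P14 groups, 141 CPM in IHCs (range 0 to 714) and 139 CPM in iOHCs (range 0.231 to 1431), and 107 CPM (range 0.122 to 742) in P30_WT IHCs. The groups differed in which genes made up that level and in how many were found in 1 cell. All 44 collagens had a count in some cell, but 9 never reached 5 counts in any cell. For a gene without a count in all 55, 46 or 50 cells, a limit of 3 cells allows a share of cells with a count of up to 5.45%, 6.52% or 6.00%, and the exact intervals end at 6.49%, 7.71% and 7.11%. Neither covers cells whose transcripts were missed. A collagen was found in at least 20% of cells for 10 genes in P14_WT IHCs, 19 genes in P14_iOHCs and 10 genes in P30_WT IHCs. These are 22.7%, 43.2% and 22.7% of the collagens, where 21.6%, 22.6% and 21.4% of all genes were that widespread, so that the IHC groups were near the share of all genes. At 5 counts they were 8, 15 and 7 genes. The median share of cells over the 44 collagens was 2.73%, 18.5% and 8%, where the median over all 55291 genes was 0%, 0% and 2.00%. A P14_WT IHC held a median of 5 collagens (0 to 12), a P30_WT IHC also 5 (1 to 21) and a P14_iOHC 8 (1 to 20). At 5 counts the medians were 4, 3 and 5, and at least 10 collagens were then found in 12 P14_iOHCs, 2 P14_WT IHCs and 0 P30_WT IHCs.

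**Figure D1:**
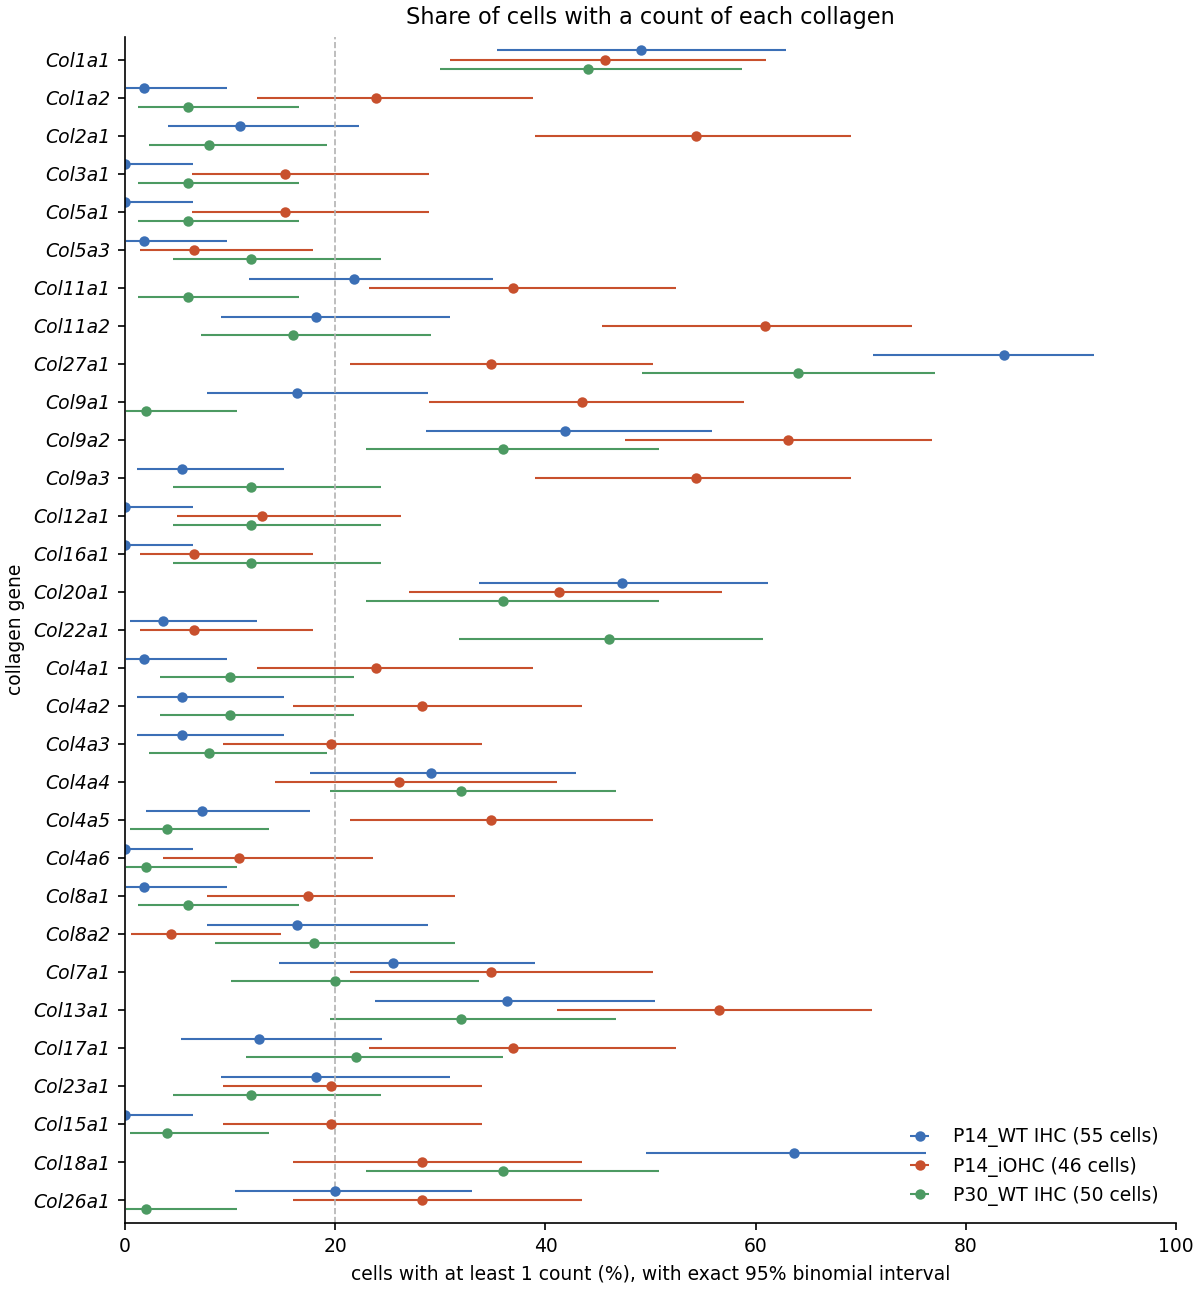
Share of cells with at least 1 count (horizontal axis, %) for the 31 collagens found in at least 10% of the cells of a group, with exact 95% binomial intervals. Points are P14_WT IHCs (blue), P14_iOHCs (orange) and P30_WT IHCs (green), and the dashed line marks 20%. *Col27a1* was in 83.6% of P14_WT IHCs and 34.8% of P14_iOHCs, and *Col2a1* in 10.9% and 54.3%.

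**Figure D2:**
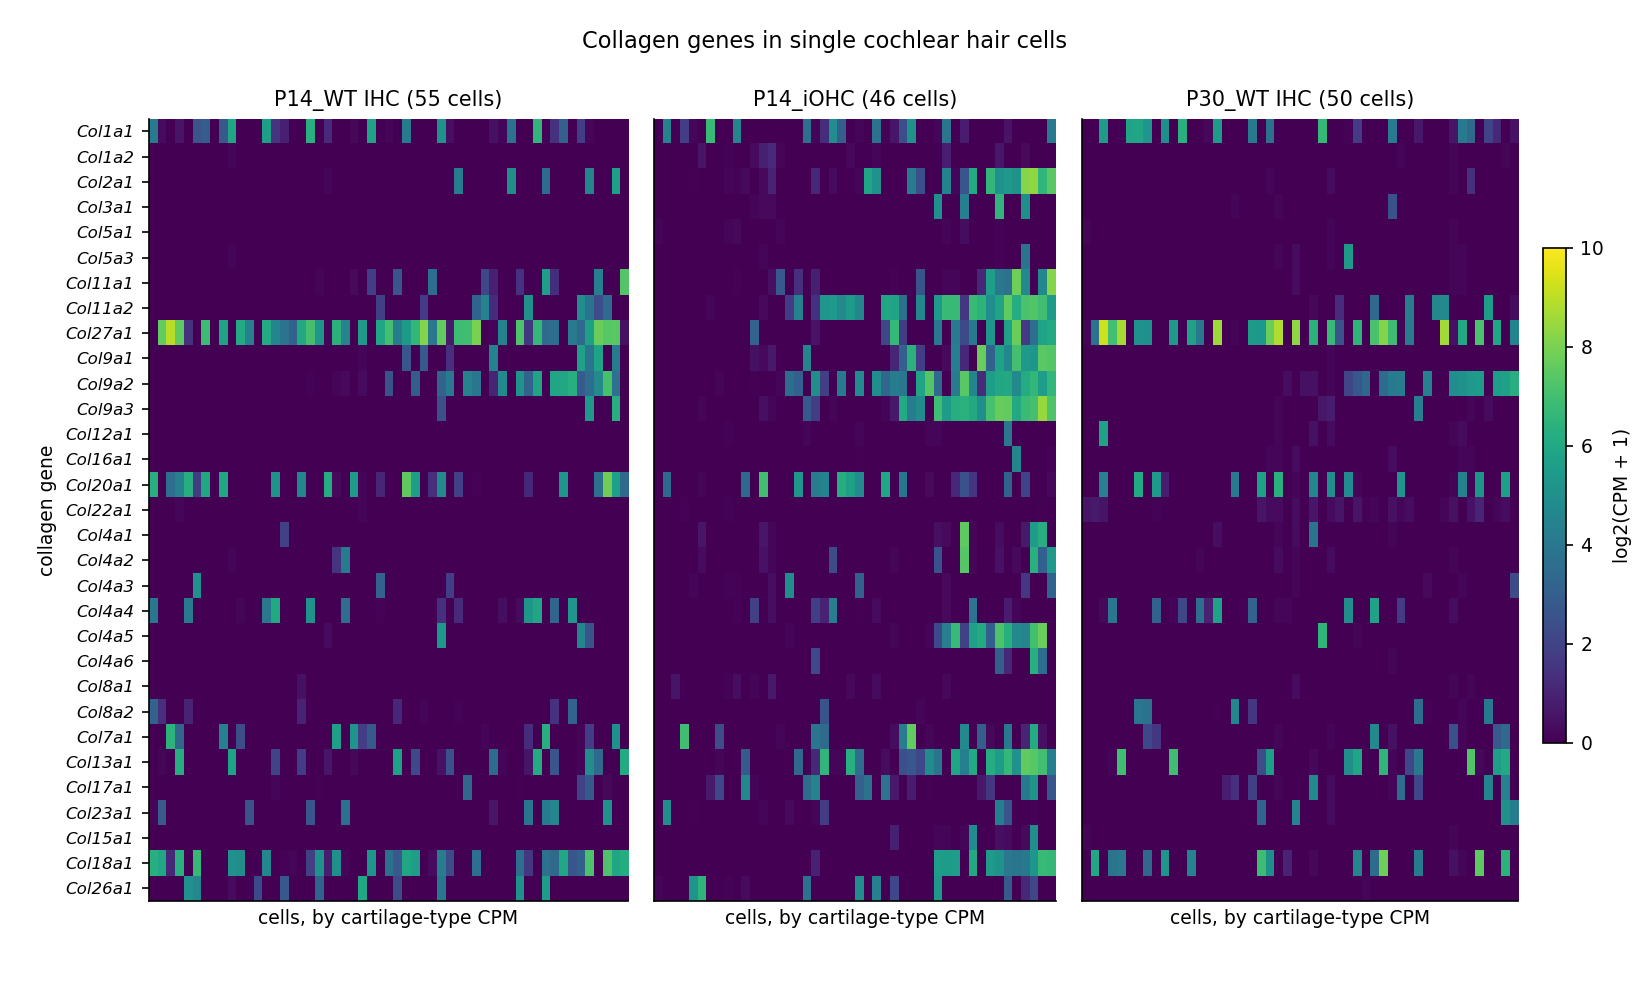
Level of the same 31 collagens (rows) in every cell (columns), as log2(CPM + 1), with the cells of each group in the order of their summed cartilage-type collagens. Values of 1 gene vary widely among the cells of 1 group, *Col27a1* fills most columns of both IHC groups, and the P14_iOHCs at the right of their panel carry many collagens at once.

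Between P14_iOHCs and P14_WT IHCs, counts were summed over the cells of a group and divided by the summed totals. Ratios were taken where 10 or more cells of both groups together had 5 or more counts of a gene, which left 13673 genes and 17 collagens among them. A gene was called at over 4-fold. Higher in iOHCs were 7 of the 17 collagens (*Col2a1*, *Col4a5*, *Col9a1*, *Col9a3*, *Col11a2*, *Col13a1* and *Col17a1*), where 8.86% of all genes were called higher. Lower were 2 collagens (*Col4a4* and *Col27a1*), where 5.16% of all genes were called lower. The median log2 ratio was 1.52 over the 17 collagens and 0.09 over all genes. All 7 genes called higher reached the minimum through the iOHCs alone, and *Col2a1*, *Col4a5*, *Col9a1*, *Col9a3* and *Col17a1* had under 10 IHCs at 5 counts, so the minimum shaped this count and this median. *Col4a4*, called lower, reached it through the IHCs alone, with 12 IHCs and 7 iOHCs at 5 counts. Among the 6 cartilage-type collagens, all of which were measured, 4 were called higher and the median log2 ratio was 2.87. The other 27 collagens did not reach the minimum of counts. In the cells with totals over 11000000 the same 7 genes were called higher and 0 lower. In the cells with totals under 11000000, 4 collagens reached the minimum, with 0 called higher and *Col18a1* and *Col27a1* called lower.

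**Figure D3:**
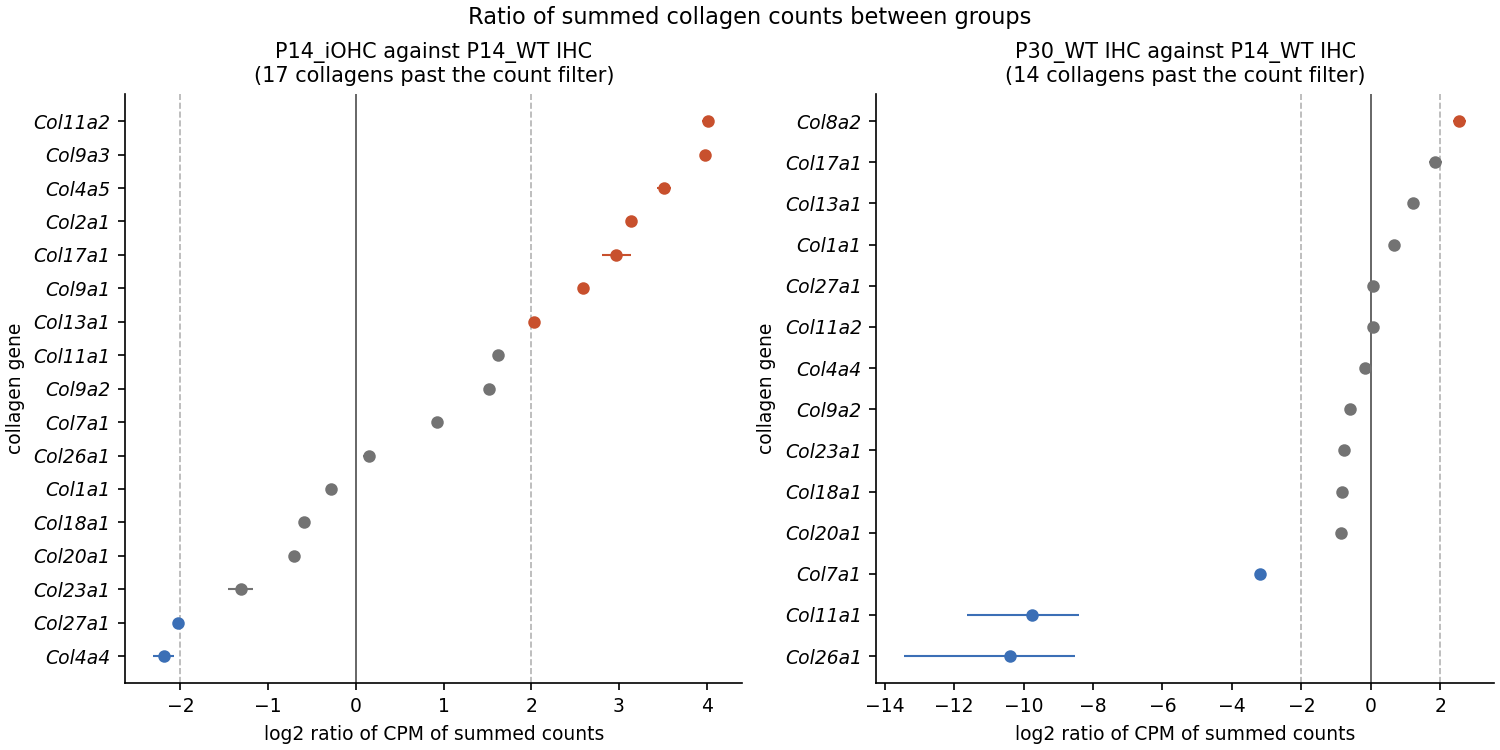
Log2 ratio of the CPM of summed counts (horizontal axis) for each collagen that reached the minimum of counts, for P14_iOHCs against P14_WT IHCs (left) and P30_WT IHCs against the same P14_WT IHCs (right). Bars are 95% counting intervals, many smaller than the points, dashed lines mark 4-fold, and colours mark genes past it (orange higher, blue lower). In the left panel *Col11a2* lies at 4.02 and *Col4a4* at -2.19.

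Fibrillar collagens of cartilage, types II and XI, included 2 of the 7 genes called higher, *Col2a1* and *Col11a2*. *Col2a1*, the single chain of type II collagen, had a count in 25 of 46 P14_iOHCs (54.3%, interval 39 to 69.1) and in 6 of 55 P14_WT IHCs (10.9%, 4.11 to 22.2). Its lowest, median and highest level was 0, 0.0822 and 327 CPM in iOHCs and 0, 0 and 49.4 CPM in IHCs. The IHC range thus lay within that of the iOHCs, and the groups differed in the number of cells with high values and in the highest value. The CPM of the sum was 27.3 and 3.10, a ratio of 8.80 (interval 8.44 to 9.19). *Col11a2*, the alpha2 chain of type XI collagen, was in 28 of 46 iOHCs and 10 of 55 IHCs, at 0, 7.15 and 186 CPM (lowest, median, highest) against 0, 0 and 31.2 CPM. Its ratio of 16.2 (interval 15.5 to 17) was the largest of the 17 collagens, and the highest iOHC, P14_iOHC-23, gave 12.4% of the sum. *Col11a1*, the alpha1 chain of the same trimer, was in 17 iOHCs and 12 IHCs, with a ratio of 3.08 that stayed under 4-fold. Of its counts in P14_WT IHCs, 64.5% came from cell P14_WT IHC-46, and without the highest cell of each group the ratio was 4.95. Its direction was not stable, as it was 2.06-fold lower in iOHCs within the P14_WT IHC range of genes detected, and at a ratio of 1.73 without the 5 cells of each group highest in supporting cell markers.

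Type IX collagen, the fibril-associated partner of type II, has 3 chains, of which *Col9a1* and *Col9a3* were called higher. *Col9a3* was in 25 of 46 iOHCs (54.3%, 39 to 69.1) and 3 of 55 IHCs (5.45%, 1.14 to 15.1), at 0, 0.110 and 347 CPM against 0, 0 and 77.5 CPM. Its ratio was 15.8 (interval 15.1 to 16.5), on 43.7 and 2.76 CPM of the sum. *Col9a1* was in 20 iOHCs and 9 IHCs and had a ratio of 6.04. *Col9a2* was the cartilage-type collagen found in the most cells of either group, in 29 of 46 iOHCs and 23 of 55 IHCs, at 0, 4.99 and 172 CPM against 0, 0 and 134 CPM, and its ratio of 2.87 was under 4-fold. Per length, *Col9a3* and *Col9a2* were the highest collagens of the iOHC sum, at 11.3 and 9.01 RPKM (reads scaled to library total and to the length of the merged exons of GENCODE M21), and *Col27a1* and *Col9a2* the highest of the P14_WT IHC sum, at 4.89 and 3.14 RPKM. *Col9a3* shares its 3′ end with *Tcfl5*, and the strand setting of the counting was not given.

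The cartilage-type collagens were often found together in the same iOHCs. At least 4 of the 6 genes had a count in 20 of 46 P14_iOHCs (43.5%, interval 28.9 to 58.9), in 4 of 55 P14_WT IHCs (7.27%, 2.02 to 17.6) and in 1 of 50 P30_WT IHCs (2.00%, 0.0506 to 10.6). Each of the 6 genes was by itself in a larger share of iOHCs than of either IHC group, which raises this share. The share expected if the genes occurred independently was not worked out. All 6 were found together in 9 iOHCs and in no IHC of either age. At the other end, 0 or 1 of the genes was found in 13 iOHCs, 39 P14_WT IHCs and 43 P30_WT IHCs. At 5 counts, at least 4 genes were found in 34.8% of iOHCs, 7.27% of P14_WT IHCs and 0% of P30_WT IHCs. Across the 46 iOHCs, Spearman's rho of the CPM of 2 of these genes lay between 0.40 (*Col2a1* and *Col11a2*) and 0.80 (*Col9a1* and *Col9a3*), with a median of 0.51 over the 15 pairs. Across the 55 P14_WT IHCs the median was 0.10 and across the 50 P30_WT IHCs 0.03, in counts that are mostly 0. Values of rho are descriptions, since the points share depth and number of genes detected. In iOHCs the summed cartilage-type CPM had a rho of 0.76 with the number of genes detected and of 0.32 with the total count.

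**Figure D4:**
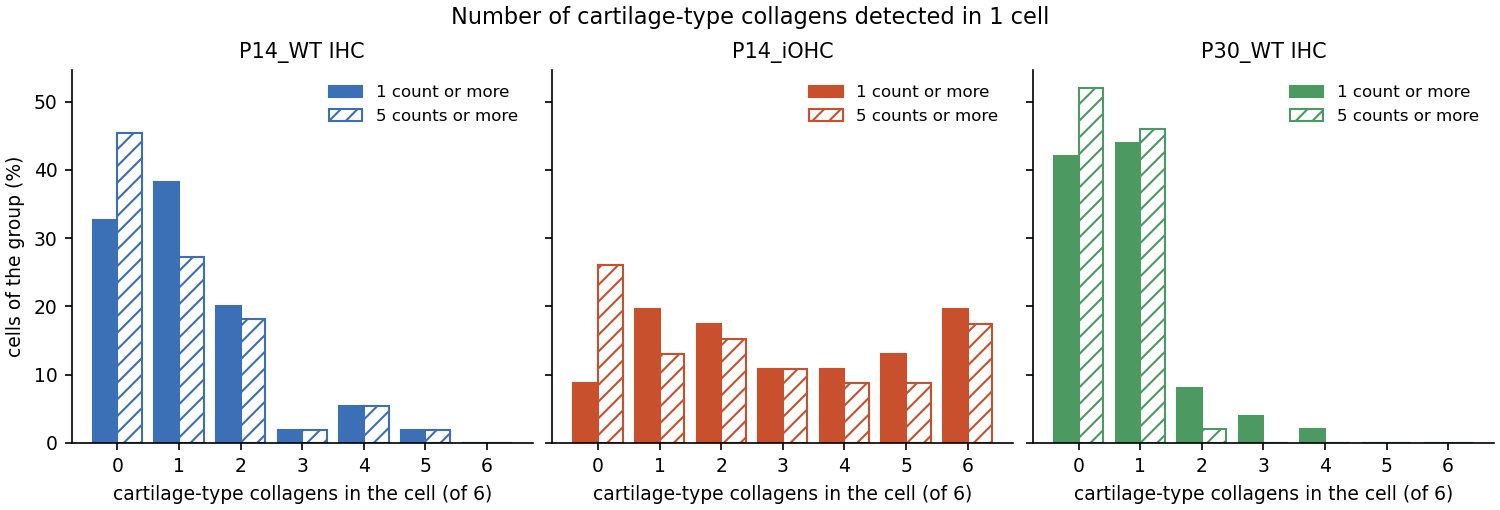
Share of the cells of a group (vertical axis, %) by the number of the 6 cartilage-type collagens found in the cell (horizontal axis), at 1 count or more (filled) and at 5 counts or more (hatched). P14_iOHCs spread over all values up to 6, which 19.6% of cells reached at 1 count, while 39 of 55 P14_WT IHCs and 43 of 50 P30_WT IHCs held 0 or 1.

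The same iOHCs carried other collagens and more transcripts of other cell types. Of the 20 iOHCs with at least 4 cartilage-type collagens, 13 had a count of *Col4a5*, 13 of *Col27a1*, 12 of *Col18a1*, 9 of *Col4a1* and 10 of *Col4a2*, whereas of the 13 iOHCs with 0 or 1 these were 1, 0, 0, 1 and 1. *Col1a1* (8 of 20 and 4 of 13), *Col20a1* (9 and 5) and *Col26a1* (4 and 5) did not follow this split. Between these sets of 20 and 13 cells the median number of genes detected was 10163 and 7072 and the median total count 17650900 and 14478073. Hair cell markers summed to a median of 9741 CPM (range 2306 to 16426) and 15592.5 CPM (13673 to 17522). Supporting cell markers summed to 8014 CPM (2286 to 19286) and 4769 CPM (3219 to 6940), or without *Fbxo2*, which every cell held at a high level, to 2407 CPM (35.8 to 10154) and 101 CPM (1.16 to 647). The medians were for fibroblast markers 492 and 1.06 CPM, for glial markers 126 and 0.118 CPM, and for endothelial and pericyte markers 0 and 0 CPM. Over all iOHCs *Lum* alone gave 361 of the 434 CPM of the summed fibroblast markers, and no value without it was worked out. *Slc26a5* was present in both sets, at a median of 879 CPM (262 to 2225) and 1118 CPM (142 to 2543). Whether RNA of other cells, or the number of genes detected, has a part in the collagen values was not tested. Among the 23 iOHCs whose number of genes detected lay within the range of the P14_WT IHCs, 39.1% still held at least 4 cartilage-type collagens, but only *Col9a3* (ratio 9.30), *Col11a2* (9.49) and *Col17a1* (5.20) were then called higher. *Col4a5* had a ratio of 4.57 there but did not reach the minimum of counts, and *Col2a1* was at 3.43 and *Col9a1* at 3.49.

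**Figure D5:**
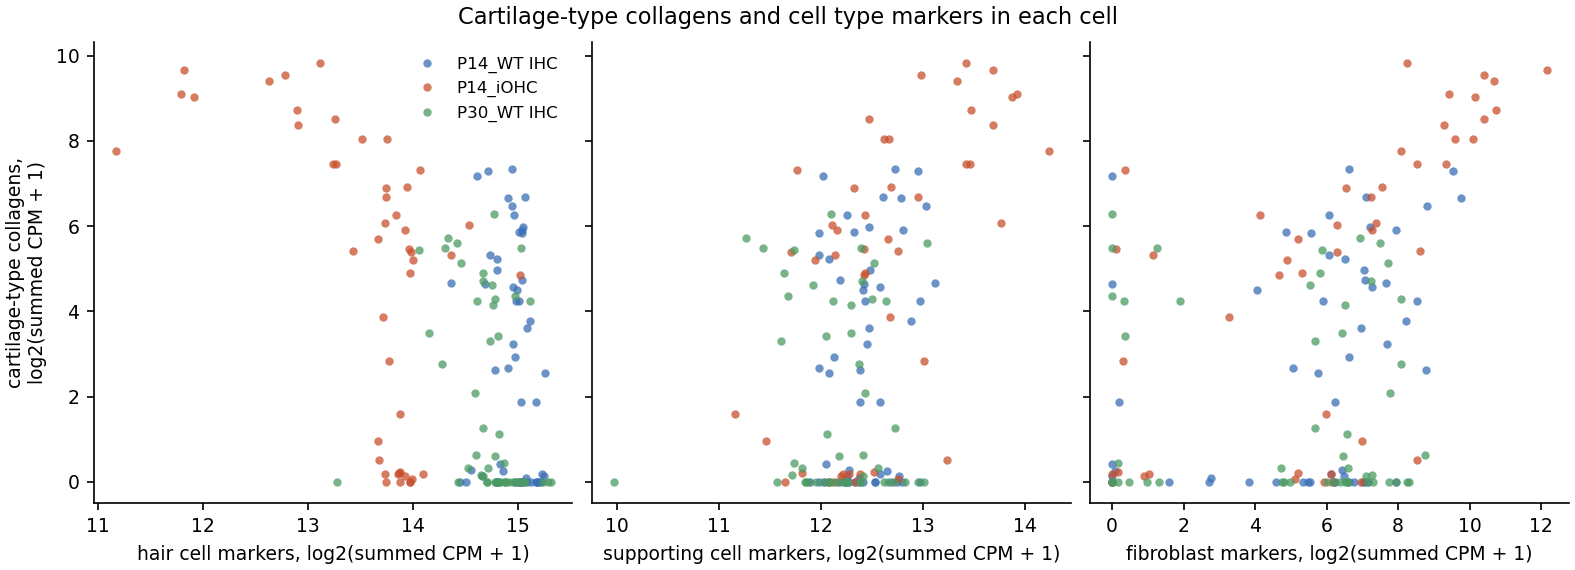
Summed cartilage-type collagens (vertical axis) against summed markers of hair cells, supporting cells and fibroblasts (horizontal axes), each as log2(summed CPM + 1), with 1 point for each of 151 cells. In P14_iOHCs (orange) rho was -0.63 with hair cell markers, 0.63 with supporting cell markers (0.81 without *Fbxo2*) and 0.73 with fibroblast markers (mostly *Lum*). In P14_WT IHCs (blue) these were -0.25, 0.19 and 0.36, and in P30_WT IHCs (green) -0.48, -0.11 and -0.06.

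Marker lists of other cell types also differed between the P14 groups. In P14_iOHCs against P14_WT IHCs, 7 of the 12 measured supporting cell markers, of 18 listed, were higher by over 4-fold and 0 lower, beside 8.86% and 5.16% of all genes. The CPM of the summed list was 7555 against 5834, of which *Fbxo2* alone gave 5552 and 5581, and without it 2003 against 253, with *Prox1* at 0 in both groups and *Ngfr* at 0 in iOHCs. The 7 were *Epyc* (468 against 11.6 CPM), *Gjb2*, *Gjb6*, *Slc1a3*, *Hes1*, *S100a6* and *Jag1*. *Epyc* had a count in 3 of 55 P14_WT IHCs, so it could reach the minimum of counts only with the iOHCs. Of the fibroblast markers 3 of 8 were measured, and *Lum*, a proteoglycan gene, was higher (361 against 61.7 CPM), while *Dcn* (43.5 against 16.5 CPM) and *Pdgfra* (29.5 against 63.9 CPM) lay within 4-fold in opposite directions. *Postn* and *Thy1* were at 0 in the iOHCs, *Pdgfrb*, *Ogn*, *Fbln1* and *Postn* in the P14_WT IHCs. Of the glial markers, *Mbp*, *Sox10* and *S100b* were higher and 0 lower, and the list summed to 94.5 against 8.83 CPM. *Mbp* was in 4 and *Sox10* in 6 of 55 P14_WT IHCs, so the same limit holds for both. Among the otic mesenchyme markers, 1 of 2 measured (*Emilin2*) was higher. With a count in 7 of 55 P14_WT IHCs, *Emilin2* could reach the minimum only with the iOHCs. *Pecam1* was the 1 endothelial marker measured and was lower, of the immune markers *C1qb* was lower and *Csf1r* higher in the sum but found in fewer cells (4 of 46 against 15 of 55), and no marker of neurons (3 measured) or blood (4 measured) was called. *C1qb* was in 4 of 46 iOHCs, so it could reach the minimum only with the P14_WT IHCs. Of the 12 hair cell markers, *Otof*, *Slc17a8* and *Calb2*, which are strong in IHCs, were lower and 0 were higher.

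Other fibrillar collagens gave a different picture, in which *Col1a1* stood alone. *Col1a1* encodes the chain that makes up most of type I collagen, in which it pairs with the product of *Col1a2*. It had a count in 27 of 55 P14_WT IHCs (49.1%, 35.4 to 62.9), in 21 of 46 P14_iOHCs (45.7%, 30.9 to 61.0) and in 22 of 50 P30_WT IHCs (44%, 30.0 to 58.7). The highest cells reached 93.8, 105 and 99.5 CPM, and the median cell was at 0 CPM in each group. *Col1a2* was in 1, 11 and 3 cells of these groups and summed to 1, 75 and 4 counts, where *Col1a1* summed to 5879, 4340 and 7676 counts. *Col3a1*, the chain of type III collagen, was in 0 of 55 P14_WT IHCs, which allows a share of up to 5.45%, in 7 iOHCs and in 3 P30_WT IHCs, and 53.2% of its iOHC counts came from cell P14_iOHC-10. Thus 26 of the 27 *Col1a1*-positive P14_WT IHCs, 19 of the 21 positive iOHCs and 21 of the 22 positive P30_WT IHCs lacked a count of *Col1a2*. No cell of any group held all of *Col1a1*, *Col1a2* and *Col3a1*, a count of 0 that allows shares of up to 5.45%, 6.52% and 6.00%. *Col1a1* (chr11:94936224-94953042) overlaps no other annotated gene. The 10 genes most like the summed *Col1a1*, *Col1a2* and *Col3a1* across cells had a rho of at most 0.54 in P14_WT IHCs (*Nqo2*) and 0.53 in iOHCs (*Phf21b*), and no fibroblast marker was among them. Only genes with a count in at least 10 cells of the group were ranked. In P14_WT IHCs this left out *Dcn*, found in 6 cells, and *Pdgfrb*, *Ogn*, *Fbln1* and *Postn*, which had no count.

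*Col27a1*, the chain of the fibrillar type XXVII collagen of cartilage, was the collagen of the IHCs. It had a count in 46 of 55 P14_WT IHCs (83.6%, 71.2 to 92.2) and in 32 of 50 P30_WT IHCs (64.0%, 49.2 to 77.1), at 0, 23.1 and 480 CPM (lowest, median, highest) and 0, 16.6 and 625 CPM. In P14_iOHCs it was in 16 of 46 cells (34.8%, 21.4 to 50.2), at 0, 0 and 214 CPM. The ranges started at 0 in all groups and overlapped, and the iOHCs differed in that most cells were at 0. The CPM of the sum was 63.7 in P14_WT IHCs and 15.6 in iOHCs, 4.09-fold lower (interval 4.01 to 4.18), and cell P14_iOHC-28 gave 40.4% of the iOHC counts. Within the totals over 11000000 it was 3.24-fold lower and within those under 11000000 55.8-fold lower, and it was also under 4-fold with TMM library sizes (3.93-fold) and without the cells with 5 or more traces (3.43-fold). In the iOHCs its level had a rho of 0.65 with the summed cartilage-type collagens, and in P14_WT IHCs of 0.08. The 10 genes most like it reached a rho of 0.51 in P14_WT IHCs (*Sin3a*) and 0.62 in P30_WT IHCs (*Gm1113*), weak values in sparse counts. In iOHCs the genes most like *Col9a3*, the collagen with the highest CPM there, were *Fxyd3* (rho 0.86), *Adamts2* (0.83, the enzyme that trims the ends of fibrillar procollagens), *Npc2*, *S100a10*, *Ces1d*, *Lum*, *Cdh1*, *Anxa2*, *Tmsb4x* and *Lad1* (0.78), over 46 cells.

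Type V and type XXIV chains, which regulate fibril assembly, were at traces. *Col5a1* was in 0, 7 and 3 cells of P14_WT IHCs, P14_iOHCs and P30_WT IHCs and never above 0.261 CPM, and *Col5a2* was in 0, 1 and 2 cells with 1 count each. *Col5a3* (1, 3 and 6 cells) and *Col24a1* (0, 1 and 3 cells) each had high values in 1 cell of a group, 42.2 CPM for *Col5a3* in P30_WT IHC-40 and 39.7 CPM for *Col24a1* in P14_iOHC-46.

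Among the fibril-associated collagens outside type IX, *Col20a1* was the 1 found widely. Type XX collagen, a little-studied member of the family, had a count in 26 of 55 P14_WT IHCs (47.3%, 33.7 to 61.2), 19 of 46 P14_iOHCs (41.3%, 27 to 56.8) and 18 of 50 P30_WT IHCs (36%, 22.9 to 50.8). Its highest cells were at 225, 123 and 81.1 CPM and its median was 0 CPM in every group. The CPM of the sum was 15.6, 9.54 and 8.6, and neither comparison passed 4-fold. *Col12a1* and *Col16a1* were not found in P14_WT IHCs and reached 5 counts in at most 1 cell of a group. *Col14a1* was in 2, 3 and 4 cells, with 158 CPM in cell P14_iOHC-13. *Col22a1*, whose protein lies at tissue junctions, had counts in 23 of 50 P30_WT IHCs against 2 of 55 P14_WT IHCs and 3 of 46 P14_iOHCs, but summed to 61 counts and reached 5 counts in 2 cells, at most 1.08 CPM. Of these 23 cells, 20 had totals under 11000000. *Col19a1* was in 1, 0 and 2 cells.

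Type IV collagen, the network of basement membranes, has 6 chains that assemble in fixed partnerships. *Col4a1* and *Col4a2*, the partners in most basement membranes and the genes with the shared promoter stretch printed above, were in 11 and 13 of 46 P14_iOHCs, in 1 and 3 of 55 P14_WT IHCs and in 5 and 5 of 50 P30_WT IHCs. In iOHCs 9 cells held both among 15 with either, or 3 among 10 at 5 counts, and rho between the 2 genes was 0.68. In P14_WT IHCs 0 of 4 cells held both and in P30_WT IHCs 2 of 8. Their iOHC level rested on few cells. The CPM of the sum was 8.96 for *Col4a1* and 8.42 for *Col4a2*, of which P14_iOHC-35 gave 66.7% and 62.3%, and at 5 counts they were in 6 and 7 iOHCs. Neither reached the minimum for a ratio. *Col4a5*, an Alport chain on the X chromosome, was in 16 of 46 iOHCs (34.8%, 21.4 to 50.2), 4 of 55 P14_WT IHCs (7.27%, 2.02 to 17.6) and 2 P30_WT IHCs, at 0, 0 and 212 CPM in iOHCs and 0, 0 and 39.2 CPM in P14_WT IHCs. Its ratio between the P14 groups was 11.4 (interval 10.8 to 12.1), and without the 5 cells of each group highest in fibroblast markers it no longer reached the minimum of counts, at a ratio of 8.52. *Col4a6*, its neighbour on the X chromosome whose RefSeq window lies 842 bases from that of *Col4a5*, was in 5 iOHCs, 4 of which held *Col4a5*.

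The chains that partner *Col4a5* in the Alport network were each found in a minority of the cells of every group. *Col4a4* was in 16 of 55 P14_WT IHCs (29.1%, 17.6 to 42.9), 12 of 46 P14_iOHCs (26.1%, 14.3 to 41.1) and 16 of 50 P30_WT IHCs (32%, 19.5 to 46.7), with highest cells of 67.2, 18.5 and 54.7 CPM. The intervals of these shares overlapped, while the CPM of the sum was 4.57-fold lower in iOHCs than in P14_WT IHCs (1.01 against 4.62, interval 4.22 to 4.96). At 5 counts the gene was in 12, 7 and 10 cells. It was under 4-fold in cells with totals over 11000000 (3.52-fold lower) and without the 5 cells of each group highest in supporting cell markers (3.24-fold lower). *Col4a3* was in 3, 9 and 4 cells. Of the iOHCs with *Col4a3* or *Col4a4*, 4 of 17 held both, and of those with *Col4a3* or *Col4a5*, 3 of 22. No P14_WT IHC held *Col4a3* with *Col4a5*, and 1 of 18 held *Col4a3* with *Col4a4*. Chains that are each in few cells meet in few cells, so these counts do not show whether they avoid each other. *Col4a4* with *Col4a5* was not counted.

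Of the network-forming short-chain collagens, *Col8a2*, a chain of the type VIII collagen of endothelial and corneal membranes, was in 9 of 55 P14_WT IHCs, 2 of 46 P14_iOHCs and 9 of 50 P30_WT IHCs, and its partner *Col8a1* in 1, 8 and 3 cells, at no more than 0.589 CPM. They met in 1 cell of 9 with either in P14_WT IHCs and in 0 of 10 iOHCs and 0 of 12 P30_WT IHCs. *Col10a1*, a marker of hypertrophic cartilage, had 1 count in 1 P30_WT IHC. The 6 type VI genes, which form beaded filaments around many connective tissue cells, were each in at most 4 cells of a group, and the highest value of any of them was 0.575 CPM (*Col6a4* in P14_WT IHC-30).

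Transmembrane collagens were found in all groups. *Col13a1*, which at the neuromuscular synapse helps to hold nerve and muscle together, was in 26 of 46 P14_iOHCs (56.5%, 41.1 to 71.1), 20 of 55 P14_WT IHCs (36.4%, 23.8 to 50.4) and 16 of 50 P30_WT IHCs (32%, 19.5 to 46.7). Its lowest, median and highest values were 0, 0.190 and 186 CPM in iOHCs, 0, 0 and 75.0 CPM in P14_WT IHCs and 0, 0 and 156 CPM in P30_WT IHCs, so that both IHC ranges lay within that of the iOHCs. The ratio between the P14 groups, 4.10 (interval 3.98 to 4.24), lay at the threshold. It was 3.99 with DESeq2 size factors, 3.53 when cells were weighted equally, 3.19 and 2.97 without the 5 cells of each group highest in fibroblast or supporting cell markers, and 1.37 in the iOHCs within the P14_WT IHC range of genes detected. *Col17a1*, a component of hemidesmosomes, which fix epithelial cells to the basement membrane, was in 17 iOHCs, 7 P14_WT IHCs and 11 P30_WT IHCs, at no more than 34.9 CPM. Its ratio between the P14 groups was 7.83 (interval 7 to 8.78), and it was in 8 of the 20 with at least 4 cartilage-type collagens and in 5 of the 13 with 0 or 1. *Col23a1* was in 10, 9 and 6 cells of P14_WT IHCs, P14_iOHCs and P30_WT IHCs and was not called, and *Col25a1* had 112 counts in 1 P14_WT IHC and 0 counts elsewhere.

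The multiplexin *Col18a1*, which yields endostatin and lies in basement membranes, was the next most widespread collagen of P14_WT IHCs after *Col27a1*. It was in 35 of 55 of them (63.6%, 49.6 to 76.2), in 13 of 46 P14_iOHCs (28.3%, 16 to 43.5) and in 18 of 50 P30_WT IHCs (36%, 22.9 to 50.8), at 0, 2.74 and 147 CPM, 0, 0 and 105 CPM, and 0, 0 and 222 CPM. Fewer iOHCs held it, but those that did held more of it, with a median of 40.2 CPM among positive iOHCs and 17.7 CPM among positive P14_WT IHCs, and the CPM of the sum (13.6 and 20.5) stayed within 4-fold. Its annotation overlaps *Slc19a1*. The other multiplexin, *Col15a1*, was in 0 of 55 P14_WT IHCs, 9 iOHCs and 2 P30_WT IHCs, and reached 5 counts in 3 iOHCs. *Col7a1*, the anchoring fibril collagen of skin, was in 14, 16 and 10 cells of P14_WT IHCs, P14_iOHCs and P30_WT IHCs, with highest cells of 87.2, 192 and 26.2 CPM. *Col26a1* was in 11 P14_WT IHCs and 13 iOHCs at 4.08 and 4.52 CPM of the sum, and *Col28a1* had 1 count in each of 4 P30_WT IHCs.

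Over 17 pairs of chains that assemble together or in 1 fibril, both were found in 36.3% of 344 combinations of a pair and an iOHC that held either chain, against 10.1% of 207 in P14_WT IHCs and 7.10% of 183 in P30_WT IHCs. At 5 counts these were 36.8%, 10.3% and 0.971%. The share rises with the number of cells in which each chain was found, which for many of these chains was larger in iOHCs. No share expected without a link between partners was worked out. At 1 count, *Col9a1* and *Col9a3* had the highest share in iOHCs, 19 of 26 cells with either, against 2 of 10 P14_WT IHCs. Next came *Col4a1* and *Col4a2*, but at 5 counts these met in 3 of 10 iOHCs with either, below *Col9a2* and *Col9a3* (17 of 28). At 1 count, *Col2a1* and *Col9a1* met in 15 of 30 iOHCs with either and 2 of 13 P14_WT IHCs, *Col11a1* and *Col11a2* in 14 of 31 and 3 of 19, and *Col1a1* and *Col1a2* in 2 of 30 and 1 of 27. In the 27 P30_WT IHCs with totals over 11000000, 0% of 81 combinations held both chains.

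Between the ages, 4 collagens differed by over 4-fold. P30_WT IHCs were compared with the same 55 P14_WT IHCs, so both comparisons share these cells. Of 14 collagens that reached the minimum of counts, 1 was higher (*Col8a2*), where 2.71% of 12946 genes were called higher, and 3 were lower (*Col7a1*, *Col11a1* and *Col26a1*), where 3.29% were called lower. The median log2 ratio was -0.38 over the collagens and -0.01 over all genes. *Col11a1* and *Col26a1* reached the minimum only through the P14_WT IHCs, with 10 cells at 5 counts each against 0 P30_WT IHCs, so they could be included only as lower. *Col7a1* also reached it through the P14_WT IHCs alone, with 12 cells at 5 counts against 6 P30_WT IHCs. *Col26a1* was in 11 of 55 P14_WT IHCs (20.0%, 10.4 to 33) with up to 61.5 CPM, and in 1 of 50 P30_WT IHCs (2.00%, 0.0506 to 10.6) with 2 counts, against 3226 counts at P14, a ratio of 1336 whose counting interval is 370 to 11038. *Col11a1* was in 12 P14_WT IHCs with 4180 counts and in 3 P30_WT IHCs with 4 counts. Without the 5 cells of each group highest in fibroblast markers neither gene reached the minimum of counts, at 1311-fold lower for *Col26a1* and 849-fold lower for *Col11a1*. *Col7a1* was 9.07-fold lower in the P30 sum (interval 8.21 to 10.0), at 0.648 against 5.88 CPM. *Col8a2* was 5.81-fold higher, at 2.04 against 0.351 CPM, with 9 positive cells in each group and highest cells of 23.1 and 8.04 CPM. In the cells with totals under 11000000, where it did not reach the minimum, its log2 ratio was -7.07, and equal weight for each cell gave 3.84-fold. In cells with totals over 11000000, 10 collagens reached the minimum, with *Col7a1*, *Col11a1* and *Col18a1* lower and 0 higher, and in those under 11000000 6 did, with 0 called. *Col27a1* had a log2 ratio of 0.07 (66.8 against 63.7 CPM). Of the cartilage-type collagens, *Col9a1* had 1 count in 50 P30_WT IHCs and *Col2a1* 15 counts, against 2835 and 2449 counts in P14_WT IHCs, but neither reached the minimum.

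Genes that modify and assemble collagen were read from a list of their own. Of 33 listed biosynthesis genes, 19 were measured between the P14 groups, and 5 were higher in iOHCs and 0 lower, where 8.86% and 5.16% of all genes were called. The median log2 ratio was 0.18, against 0.09 over all genes. These 5 were *Plod2* (24.5 against 2.49 CPM), which hydroxylates lysines at the chain ends, *Colgalt2* (26.9 against 6.02 CPM), which adds galactose, *Adamts2* (19.7 against 2.61 CPM), *Lox* (103 against 8.98 CPM), which cross-links fibrils, and *Sparc* (1443 against 331 CPM), which binds collagen outside the cell. The other measured members were within 4-fold, among them the prolyl 4-hydroxylase chains *P4ha1* (21.7 against 19.7 CPM), *P4hb* (196 against 334 CPM) and *P4ha3* (15.1 against 46.4 CPM). *Plod2* and *Adamts2*, with a count in 4 and 3 of 55 P14_WT IHCs, could reach the minimum of counts only with the iOHCs. Of the 9 collagen receptors 4 were measured and 0 called. Among 5 measured degrading enzymes of 9 listed, *Mmp14*, a membrane-bound collagenase, was higher in iOHCs (23 against 0.958 CPM) and *Mmp9*, a gelatinase, lower (1.53 against 31.1 CPM, in 2 of 46 and 37 of 55 cells). *Mmp14* was in 18 of 46 iOHCs and 5 of 55 P14_WT IHCs. Each of these 2 genes could thus reach the minimum only with the group where it was higher. In P30_WT IHCs against P14_WT IHCs, 17 biosynthesis genes were measured, with 0 higher and *P3h3* lower, *Mmp14* was higher (4.63 against 0.958 CPM), and no receptor was called. Of all genes, 2.71% were called higher and 3.29% lower between these ages.

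Non-collagen components of the same matrices were also counted. Of 6 tectorial membrane genes, *Ceacam16* (831 against 15.8 CPM), *Tectb* (540 against 45.2), *Otogl* (173 against 11.7) and *Otog* (120 against 21.5) were higher in P14_iOHCs by over 4-fold, against the P14_WT IHCs, *Tecta* was lower (2.04 against 21.9) and *Otoa* was not called. These genes encode the glycoproteins of the gel between the fibrils, and their summed level in iOHCs had a rho of 0.73 with the summed cartilage-type collagens. *Otogl* had a count in 9 of 55 P14_WT IHCs, so it could reach the minimum of counts only with the iOHCs. Of all genes, 8.86% were called higher and 5.16% lower between the P14 groups. Of 13 basement membrane genes 7 were measured, and the laminin chains *Lamb2* and *Lamb3* were higher, with *Lamb3* in 11 of 46 iOHCs and 3 of 55 P14_WT IHCs. *Lamb2* was in 19 and 7 of these cells, so both genes could reach the minimum of counts only with the iOHCs. At P30, *Tectb* was lower than at P14 (9.43 against 45.2 CPM), and neither of the 2 basement membrane genes measured was called, where 2.71% of all genes were called higher and 3.29% lower. The P30 comparison also had *C1qb* of the immune markers and *Hba-a1* and *Hbb-bs* of the blood markers lower, and no marker of hair cells, supporting cells, fibroblasts, glia, neurons, otic mesenchyme or endothelium called. *C1qb* was in 3 of 50 P30_WT IHCs, so it could reach the minimum only with the P14_WT IHCs.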

How the data were processed

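Single-cell libraries of 151 picked cells were read from a table of counts per gene deposited by the authors. Per the labels, reads were checked with FastQC 0.11.9 and trimmed with Trimmomatic 0.39, aligned with HISAT2 2.1.0 to mm10 and counted with HTSeq 0.10.0, with StringTie 1.3.5 also named; annotation release, strand setting and treatment of multiply mapped reads were not given in the sources used here. No row lacked a gene name. All cells were kept, and no doublet caller was run on hand-picked cells. No 2 libraries held identical counts.

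Counts were summed per group and divided by summed totals, with exact Poisson intervals. Shares of cells have exact Clopper-Pearson 95% intervals. These libraries carry no molecular identifiers, so a read is not an independent molecule and the intervals cover counting error only. In 1 cell, 3 counts equal 0.120 to 0.693 CPM. A ratio of over 4-fold was called where 10 or more cells of the compared groups had 5 or more counts, and a group with 0 counts took 3. A gene with a count in under 10 cells of 1 group could reach this minimum only with cells of the other group. Spearman's rho used CPM across the cells of a group. Lengths and overlaps came from GENCODE M21. Named were collagens in at least 10% of the cells of a group or past 4-fold, other list members past 4-fold, and the 10 genes with the largest rho. Genes outside this rule (*P4ha1*, *P4ha3*, *P4hb*, *Otoa*, *Dcn*, *Pdgfra*, *Fbxo2* and the rarer collagens) were chosen after their values were seen. A few genes of the lists and of the genes with the largest rho are not reported here. Members and lists were chosen with earlier results of these data known. Alternatives covered scaling, filter, threshold, detection level, thinning to 4000000 counts and subsets of cells. Python 3.11.15, SciPy 1.17.1, pandas 2.3.3 and, for scaling, edgeR 4.0.16 (TMM) and DESeq2 1.42.0 in R 4.3.3 were used, and the scripts were tested on simulated data.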

Additional observations from a re-analysis of the deposited data

How the results depend on the processing

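No paired analysis was possible because the results come from no test and the labels tie no cell to an animal. Of 147 alternatives to 16 main values, 112 left the value within its range and 35 moved it, and the cause was not tested. The range was a fixed factor for counts of genes or cells and the counting interval for shares. A reversal was not defined for these values. For collagens higher in P14_iOHCs (7), the count was 3 within the range of genes detected in P14_WT IHCs, 0 with totals under 11000000, where 4 collagens reached the minimum, and 21 with no filter. For those lower (2), it was 1 with TMM library sizes, 0 with totals over 11000000, 4 with no filter, 1 without cells with 5 or more traces and 1 without the cells highest in supporting cell markers. For collagens higher in P30_WT IHCs (1), it was 3 at 2-fold, 2 with DESeq2 size factors, 2 within the range of genes detected, 0 with totals over and 0 with totals under 11000000, 6 with no filter and 2 without the highest cell of each gene. For those lower (3), it was 0 with totals under 11000000, 10 with no filter and 1 without the cells highest in fibroblast markers. Collagens in at least 20% of P30_WT IHCs (10) were 6 at 1 CPM. The share of cells with both chains of a pair was 5.26% with totals under 11000000 in P14_WT IHCs (10.1%) and 30.1% without the cells highest in fibroblast markers in P14_iOHCs (36.3%). In P30_WT IHCs (7.10%) it was 1.53% within the range of genes detected, 0% over and 12.7% under 11000000, 1.10% at 1 CPM, 0.971% at 5 counts and 0% without cells with 5 or more traces. At least 4 cartilage-type collagens were in 0% of P14_WT IHCs (7.27%) and 25.0% of P14_iOHCs (43.5%) with totals under 11000000, and in 0% of P30_WT IHCs (2.00%) within the range of genes detected, over 11000000, at 1 CPM, at 5 counts, thinned, and without cells with 5 or more traces. Of 310 alternatives to the 31 ratios of single genes, 231 moved beyond the counting interval. Of the 13 ratios past 4-fold, 1 changed sign, *Col8a2* at P30 with totals under 11000000 (log2 ratio -7.07), and of the 18 within 4-fold, 12 changed sign in at least 1 alternative, among them *Col11a1* (1.62 to -1.04), *Col7a1* (0.93 to -2.46) and *Col23a1* (-1.31 to 1.07) in iOHCs and *Col1a1* at P30 (0.66 to -1.67). The subsets by traces and by genes detected, and all alternatives for the cartilage-type count, were chosen after seeing the data. A gene with 0 counts may be below the depth of a library.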
